A study of Homo sapiens with 6 samples.

Results

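The genes described here are 37 members of the cell death machinery, chosen by symbol from 63236 genes: the BCL2 family, caspases with their adaptors and inhibitors, the necroptosis kinases and 2 gasdermins. They were measured by mRNA sequencing in FUJIOKA, a line of human acute myeloid leukaemia cells, in 3 shNEG libraries and 3 shSPINK2 libraries. Both groups carry a lentiviral Tet-pLKO-puro vector that doxycycline switches on, with a scrambled shRNA in shNEG and an shRNA against SPINK2, which encodes a serine protease inhibitor, in shSPINK2. The labels name 2 SPINK2 shRNAs without saying which of them a library carries, the study's methods name shRNA1, and the time on doxycycline before RNA was taken is not given in the sources used here. All libraries come from 1 cell line, and nothing says that they came from separate cultures, so p-values measure the spread between these libraries, which may be technical.

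In mitochondrial apoptosis, BH3-only proteins bind the anti-apoptotic guardians of the BCL2 family or engage the effectors BAX and BAK1, which open the outer mitochondrial membrane. Cytochrome c then joins APAF1 and CASP9 in the apoptosome, while DIABLO relieves the inhibition of caspases by the inhibitor of apoptosis proteins. Death receptors act through FADD, CASP8 and CFLAR, and where CASP8 is not active RIPK1, RIPK3 and MLKL can drive necroptosis. Acute myeloid leukaemia cells are known for their dependence on BCL2 and MCL1.

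The target sequences of both SPINK2 shRNAs are shown because a word of shRNA2 recurs in the transcripts of members described below. In shRNA2 the capitals mark bases 10 to 16 of the target, counted from its 5′ end, and in shRNA1 they mark bases 14 to 20, the match to bases 2 to 8 of the guide.
shRNA1: tcagggaaggtggTCATAATa
shRNA2: cgccaaactGCTCTCAgtata
The word in capitals of shRNA2 occurs in the 3′ UTR of 2 of 33 members, BAK1 and DIABLO, against 10.5% of 11467 genes searched. The windows below are on GRCh38, with the word in capitals and the gene's strand read 5′ to 3′; both lie on the minus strand, at chr6:33572989-33573017 in BAK1 and at chr12:122207790-122207818 in DIABLO.
BAK1: tacaggtgaagGCTCTCAcccccatccct
DIABLO: gtttacctggtGCTCTCAacaggacttaa
In DIABLO the run shared with the target is 8 bases long, and in BAK1 it is 7.

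SPINK2 itself had 56, 63 and 53 reads in shNEG and 7, 9 and 6 in shSPINK2, a log2 difference of -2.91 (SE 0.27, limma adjusted p = 1.05e-11). The groups did not overlap. Libraries are called a, b and c within a group in falling order of their size factor, and reads are given in that order throughout. The reads recovered for genes with a mean under 8000 came to between 19312386 and 20225564 per library, and the size factors spanned 4.85%. Of 8 myeloid blast markers, 7 had a mean of at least 10, while the stem cell factor receptor KIT was near absent at a mean of 0.666 normalised reads. Of the markers of other lineages, EPCAM, KRT18, COL1A2, HBB and HBA1 were at 0, T cell markers did not exceed a mean of 4.29, and the highest was the B cell marker CD79A at 183. The markers moved between groups: of the 3 blast markers tested, CD33 was higher in shSPINK2 by 0.36 on the log2 scale, while CD34 (-0.86) and MPO (-0.40) were lower. Of 16 markers of other lineages 5 were tested, and CD79A was higher (0.58, adjusted p = 1.48e-05), COL1A1 was lower (-0.60, adjusted p = 1.19e-05) and 3 passed in neither direction. Both tested genes of the 6-gene proliferation list were lower in shSPINK2, with log2 differences of -1.28 and -1.19 (the other 4 had means above 8000 and were not tested), and 9 of 10 interferon-stimulated genes were higher, with a median of 0.66 over the list. The part of these lists in the differences below was not tested, and fewer cells of a type and less RNA per cell cannot be told apart in bulk RNA.

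Of the 37 members, 33 had a mean of at least 10 normalised reads and were tested. In shSPINK2, 11 were lower and 9 were higher, and 13 passed in neither direction, at a Benjamini-Hochberg adjusted p under 0.05 over all 15197 genes fitted with limma. Those 20 called members are 60.6% of the members tested, beside 57.3% of all genes tested and 68.7% of the genes within the members' range of means. The share called among the members was thus near the background. By direction, 27.3% of tested members were higher, beside 27.9% of all genes, and 33.3% were lower, beside 29.4%. No member passed an absolute log2 difference of 1, which 4.97% of all genes passed together with the adjusted p. The median absolute log2 difference was 0.20 over members and 0.27 over all genes. In 19 members the libraries of the 2 groups did not overlap (57.6%, beside 61.3% of all genes). The counts by role below rest on few genes each, and whether any role differs from all genes was not tested.

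**Figure D1:**
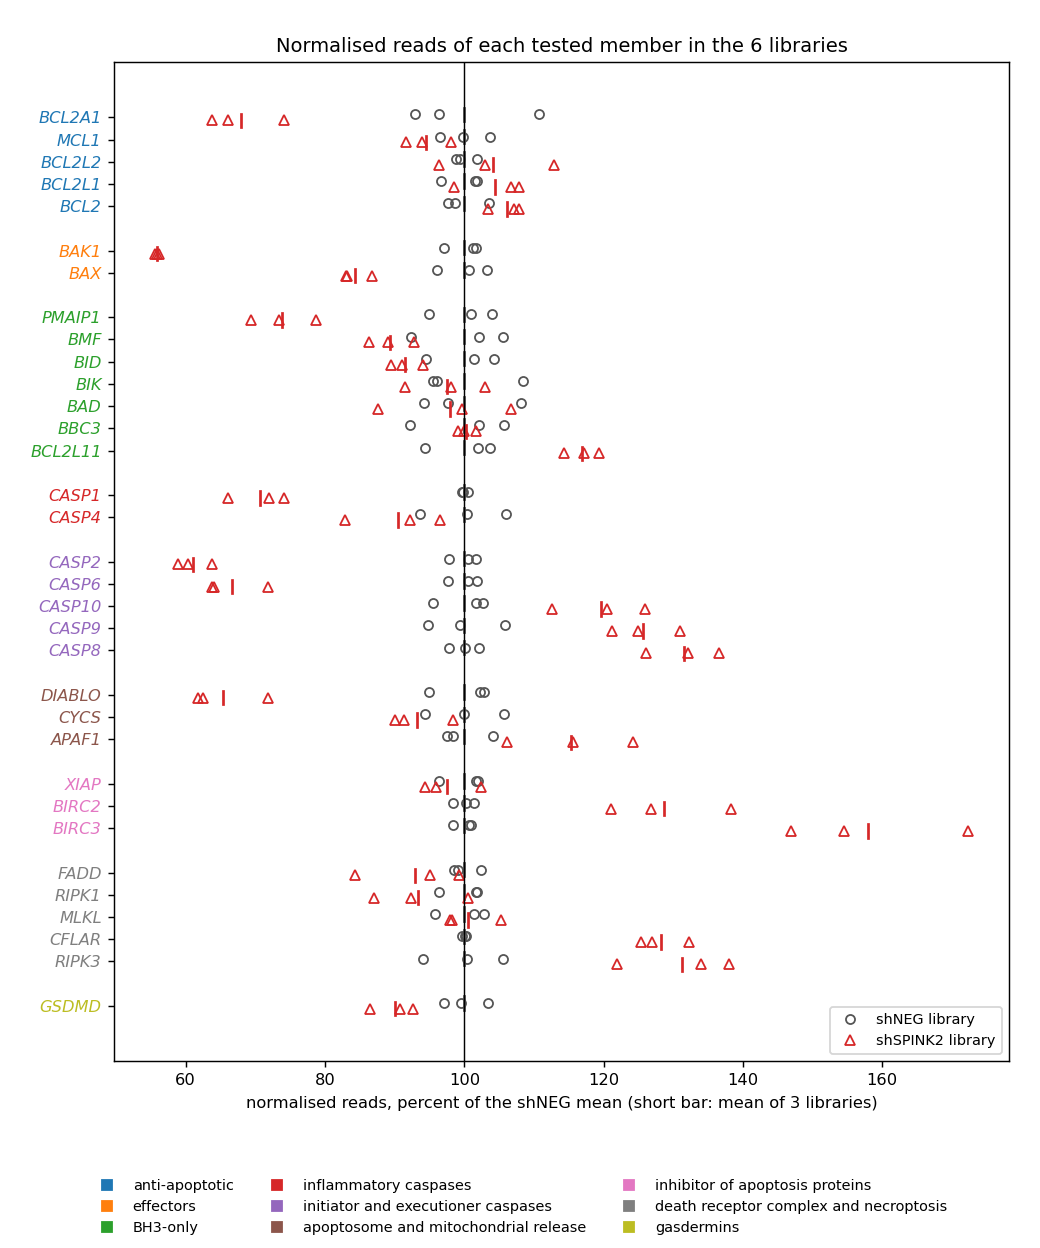
Normalised reads of the 33 tested members in each of the 6 libraries, as a percent of the shNEG mean of the same gene; circles are shNEG, triangles shSPINK2, short bars the mean of 3 libraries, and the colour of a name gives its role. The triangles of BAK1, CASP2, CASP6 and DIABLO lie below all circles of their gene, and those of BIRC3, CASP8 and RIPK3 above.

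Both expressed effectors fell, beside 29.4% of all genes tested that were lower. BAK1, which with BAX forms pores in the outer mitochondrial membrane, had 2490, 2494 and 2377 reads in shNEG and 1414, 1376 and 1356 in shSPINK2. Every shSPINK2 library lay far below every shNEG library, and the log2 difference of -0.84 (SE 0.05, adjusted p = 1.79e-17) was the largest fall of any member. BAX had 2192, 2349 and 2286 reads in shNEG and 2039, 1908 and 1859 in shSPINK2, a log2 difference of -0.25 (SE 0.05, adjusted p = 3.17e-05) with no overlap. The ratio of BAK1 to BAX reads was between 1.04 and 1.14 in shNEG and between 0.693 and 0.729 in shSPINK2, so BAK1 reads outnumbered BAX reads in each shNEG library and in no shSPINK2 library. BOK, the third effector, was at the limit of detection with 2, 4 and 2 reads against 1, 4 and 2, and was not tested.

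Of the 5 anti-apoptotic members, 1 fell and 4 passed in neither direction (20% called, beside 57.3% of all genes tested). MCL1, a short-lived guardian, had 7058, 7566 and 7267 reads in shNEG and 6906, 7218 and 6746 in shSPINK2. The groups overlapped, and the 95% interval of the log2 difference ran from -0.17 to 0.01. BCL2, the target of venetoclax, had 4006, 3769 and 3802 reads against 4121, 4168 and 4099. In raw reads the shSPINK2 libraries lay above the shNEG libraries, but after division by the size factors they overlapped, and the interval ran from -0.0034 to 0.18. The intervals of BCL2L1, which encodes BCL-XL, and of BCL2L2, which encodes BCL-W, were -0.04 to 0.16 and -0.07 to 0.18. BCL2 was called higher without shSPINK2_a (log2 difference 0.10, adjusted p = 0.042) and with libraries centred on their median (0.12, adjusted p = 0.0107), and without shSPINK2_b MCL1 was called lower (-0.11, adjusted p = 0.0243).

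BCL2A1 was the guardian that fell. It had 86, 89 and 102 reads in shNEG and 63, 69 and 58 in shSPINK2, a log2 difference of -0.55 (SE 0.15, adjusted p = 0.00162), and the groups did not overlap. It had the fewest reads of the members tested and the widest standard error. Per kb of merged exons MCL1 made up 56.7% ± 1.02 (SD, n = 3) of the summed level of the 5 guardians in shNEG and 55.1% ± 0.922 in shSPINK2. BCL2L1 made up 16.9% ± 0.523 and 18.1% ± 0.702, BCL2 14.8% ± 0.713 and 16.1% ± 0.428, and BCL2A1 4.49% ± 0.434 and 3.13% ± 0.180. The order of BCL2L1 and BCL2 depended on the length used. With the longest transcript, over the 6 libraries, BCL2 made up 18.7% and BCL2L1 16.15%. The ratio of BCL2 to BAX reads was between 1.60 and 1.83 in shNEG and between 2.02 and 2.20 in shSPINK2.

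Of 7 BH3-only members tested, PMAIP1 and BID fell, BCL2L11 rose, and BBC3, BAD, BIK and BMF passed in neither direction. The share called was 42.9%, below the 57.3% of all genes tested and the 68.7% within the members' range of means. The median log2 difference of the BH3-only members was -0.04. PMAIP1, which encodes the MCL1 ligand NOXA, had 695, 652 and 713 reads in shNEG and 492, 545 and 496 in shSPINK2. Its groups were well apart, with a log2 difference of -0.44 (SE 0.07, adjusted p = 5.09e-07). BCL2L11, which encodes BIM, had 1113, 1027 and 1128 reads in shNEG and 1318, 1311 and 1226 in shSPINK2, a log2 difference of 0.23 (SE 0.05, adjusted p = 4.16e-04) without overlap. MCL1 therefore had between 10.2 and 11.6 reads per PMAIP1 read in shNEG and between 13.2 and 14.04 in shSPINK2, while per BCL2L11 read it had between 6.34 and 7.37 and then between 5.24 and 5.51.

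BID, the BH3-only protein that CASP8 cleaves, had 3918, 3545 and 3795 reads in shNEG and 3530, 3386 and 3474 in shSPINK2. The log2 difference was -0.13 (SE 0.05, adjusted p = 0.0181), and without shNEG_a (adjusted p = 0.135) or shNEG_c (adjusted p = 0.0857) it was no longer called, nor without a filter on low means, without the trend or with libraries centred on their median (adjusted p = 0.057, 0.0972 and 0.0741). BBC3, which encodes PUMA, had 190, 183 and 165 reads against 185, 184 and 175, and its interval ran from -0.20 to 0.21. BAD and BIK had log2 differences of -0.03 and -0.04 with intervals of -0.20 to 0.14 and -0.18 to 0.10. BMF, at -0.16 with an adjusted p of 0.0676, was called lower without shNEG_c (-0.22, adjusted p = 0.0348). HRK had 0 reads in every library.

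All 5 initiator and executioner caspases tested were called, CASP2 and CASP6 lower and CASP8, CASP9 and CASP10 higher, and in none did the groups overlap. Beside them, 57.3% of all genes tested were called, and 68.7% of those within the members' range of means. The groups did not overlap in 61.3% of all genes, and whether these 5 differ from other genes was not tested. CASP2, which is activated on the PIDD1 platform, had 6079, 6139 and 5896 reads in shNEG and 3671, 3881 and 3589 in shSPINK2. Its log2 difference of -0.71 (SE 0.04, adjusted p = 2.29e-16) came second to that of BAK1 among the falls. CASP6, an executioner, had 991, 949 and 974 reads against 640, 628 and 687, a log2 difference of -0.59 (SE 0.06, adjusted p = 1.30e-10).

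CASP8, the initiator recruited by FADD, had 2008, 2050 and 2087 reads in shNEG and 2665, 2822 and 2666 in shSPINK2, a log2 difference of 0.40 (SE 0.05, adjusted p = 4.31e-09). CASP10, its close relative, had 1011, 938 and 997 reads against 1142, 1247 and 1165, a log2 difference of 0.26 (SE 0.06, adjusted p = 1.40e-04). CASP9, the initiator of the apoptosome, had 500, 476 and 531 reads against 648, 614 and 648, a log2 difference of 0.33 (SE 0.07, adjusted p = 5.03e-05). In each of these 3 genes every shSPINK2 library exceeded every shNEG library.

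Both tested inflammatory caspases fell, beside 29.4% of all genes tested that were lower. CASP1, which matures interleukin-1β and cleaves gasdermin D, had 3088, 3058 and 3047 reads in shNEG and 2089, 2225 and 2238 in shSPINK2, a log2 difference of -0.50 (SE 0.05, adjusted p = 2.56e-11) with the groups well apart. CASP4, which responds to cytosolic lipopolysaccharide, had 2278, 2008 and 2150 reads against 1836, 1995 and 2038. Its groups overlapped, and its log2 difference of -0.14 (adjusted p = 0.0213) was not called without shNEG_a, shNEG_c or shSPINK2_a (adjusted p = 0.167, 0.0635 and 0.179), nor in the 3 other settings that ended the call of BID (adjusted p = 0.117, 0.176 and 0.0743). CASP5 had 3, 1 and 3 reads against 1, 1 and 1 and was not tested. CASP1, CASP4 and CASP5 are similar in sequence, as is the neighbouring CARD16, which was higher by 0.37 on the log2 scale (adjusted p = 4.09e-04), and the counting could split reads between them. GSDMD, the pore-forming substrate of these caspases, had 1963, 2009 and 2085 reads against 1893, 1760 and 1843, a log2 difference of -0.15 (adjusted p = 0.00726) that was not called without shNEG_c (adjusted p = 0.0693). The symbol GSDMD has 2 entries, and these values are those of the entry with the higher mean. GSDME, listed under its older symbol DFNA5 and found by its Ensembl identifier, had 0 reads in every library.

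**Figure D2:**
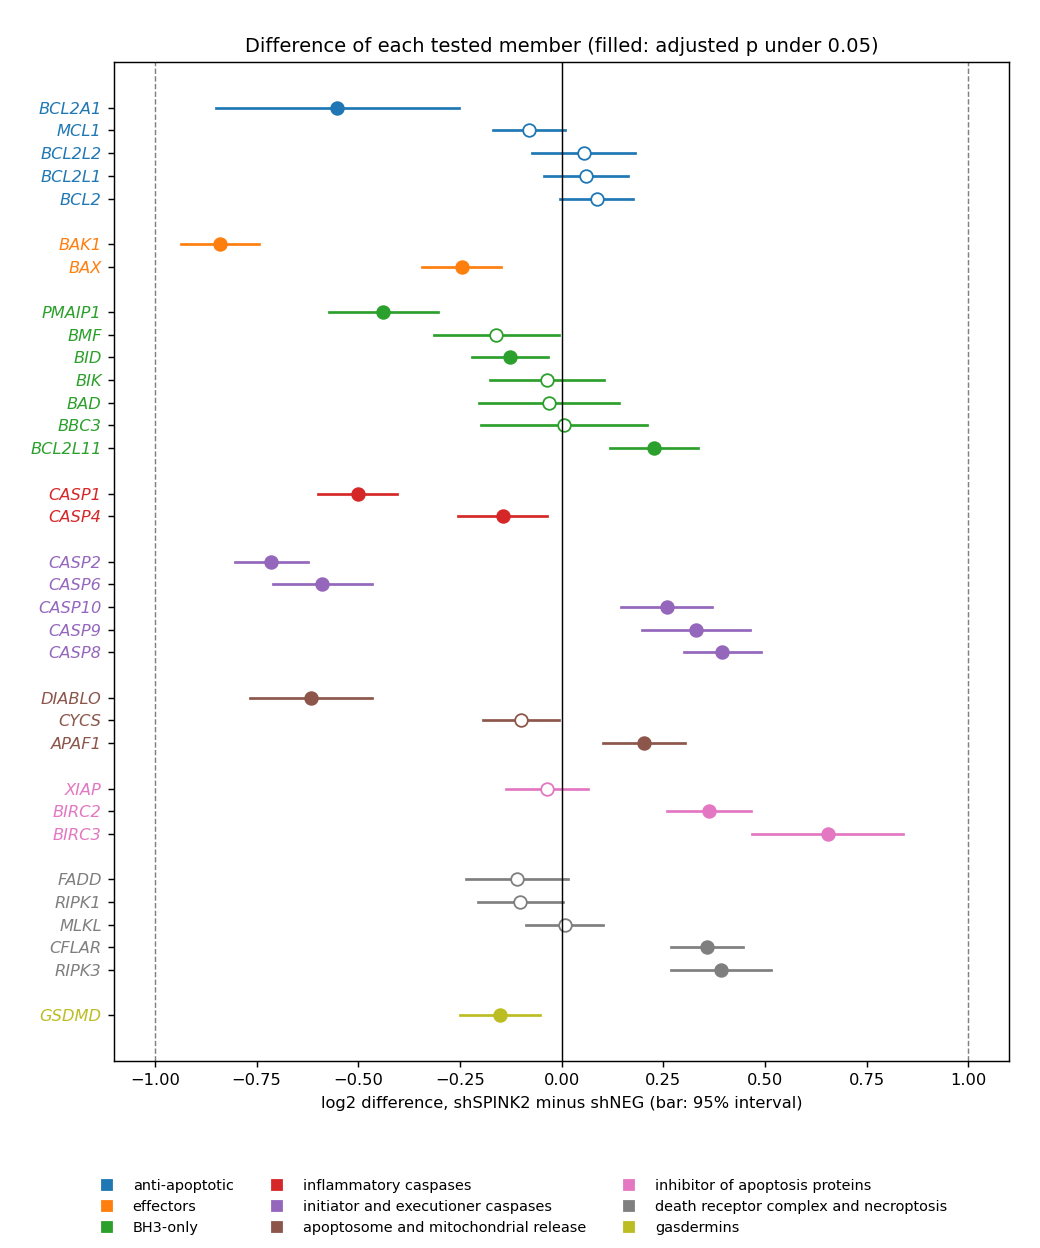
Log2 difference of each tested member, shSPINK2 minus shNEG, with its 95% interval, ordered within roles; filled points have an adjusted p under 0.05 and dashed lines mark an absolute log2 difference of 1. BAK1 at -0.84 and BIRC3 at 0.65 are the outermost points, and no point reaches a dashed line.

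The 3 members of the apoptosome and mitochondrial release group went 3 ways, with 66.7% called, beside 57.3% of all genes tested. DIABLO, the antagonist of the inhibitor of apoptosis proteins, had 556, 512 and 551 reads in shNEG and 348, 391 and 328 in shSPINK2, a log2 difference of -0.62 (SE 0.07, adjusted p = 5.67e-09) with no overlap. APAF1, the scaffold of the apoptosome, had 3376, 3154 and 3180 reads against 3547, 4055 and 3686, a log2 difference of 0.20 (SE 0.05, adjusted p = 6.20e-04) that was not called without a trend in the variance prior (adjusted p = 0.0564). CYCS, which encodes cytochrome c, had 7731, 8648 and 8154 reads against 7597, 8116 and 7356, and the groups overlapped. Its log2 difference of -0.10 had an adjusted p of 0.0605, and it was called lower without shNEG_a (adjusted p = 0.023) or shSPINK2_b (adjusted p = 0.00557), or at a minimum mean of 50 (adjusted p = 0.0499).

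Of the inhibitor of apoptosis proteins, BIRC3 and BIRC2 rose and XIAP passed in neither direction (66.7% called, beside 57.3% of all genes tested). BIRC3, the ubiquitin ligase cIAP2, had 182, 186 and 186 reads in shNEG and 280, 321 and 281 in shSPINK2. Its log2 difference of 0.65 (SE 0.09, adjusted p = 1.24e-07) was the largest rise of any member. BIRC2, the ligase cIAP1, had 1597, 1622 and 1639 reads against 2024, 2258 and 2023, a log2 difference of 0.36 (SE 0.05, adjusted p = 1.29e-07). Neither gene overlapped between groups. XIAP, which inhibits caspases directly, had 1636, 1724 and 1726 reads against 1679, 1751 and 1576, and its interval ran from -0.14 to 0.07. There were between 2.94 and 3.37 XIAP reads per DIABLO read in shNEG and between 4.48 and 4.82 in shSPINK2, and between 2.87 and 3.17 BIRC2 reads per DIABLO read against between 5.77 and 6.17.

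In the death receptor complex and the necroptosis pathway, CFLAR and RIPK3 rose and FADD, RIPK1 and MLKL passed in neither direction. The share called was 40%, beside 57.3% of all genes tested. CFLAR, which encodes the CASP8 regulator FLIP, had 3446, 3434 and 3412 reads in shNEG and 4440, 4579 and 4290 in shSPINK2, a log2 difference of 0.36 (SE 0.04, adjusted p = 7.42e-09). RIPK3, the kinase that phosphorylates MLKL, had 754, 716 and 670 reads against 1016, 877 and 941, a log2 difference of 0.39 (SE 0.06, adjusted p = 1.01e-06). In both genes every shSPINK2 library was the higher. CASP8 and CFLAR reads kept nearly the same ratio, between 0.583 and 0.612 in shNEG and between 0.600 and 0.621 in shSPINK2, and these ranges overlapped. MLKL, the executor of necroptosis, had 2909, 2707 and 2858 reads against 2866, 2790 and 2929, with an interval of -0.09 to 0.10. FADD and RIPK1, at -0.11 and -0.10, had adjusted p-values of 0.131 and 0.0906, and both were called lower without shSPINK2_c (adjusted p = 0.0452 and 0.0145).

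CFLAR, CASP10 and CASP8, all 3 higher, lie side by side on chromosome 2, within chr2:201116154-201361836, with gaps of 6184 and 4014 bases between them. Within 500 kb of this span 14 other genes were tested, of which 1 was higher, 4 were lower and 9 passed in neither direction, with a median log2 difference of -0.10. Of the genes that passed in neither direction, AOX1, HNRNPA1P35, CFLAR-AS1 and ALS2CR12 had few reads, with means of 21.6, 16.7, 15.1 and 16.1. Their standard errors lay between 0.27 and 0.34, so a difference the size of those of CFLAR, CASP10 and CASP8 could be missed in them. CFLAR-AS1, an antisense gene of CFLAR, was at 0.63 (adjusted p = 0.116), and as the strandedness of the counting is not given, reads of the pair cannot be told apart. BIRC3 and BIRC2, both higher, are neighbours on chromosome 11, 7807 bases apart. Of 3 other genes tested within 500 kb of them, 1 was lower and 2 passed in neither direction. Those 2, AP000942.1 (0.86, SE 0.40) and MMP7 (0.19, SE 0.32), had means of only 10.3 and 13.6. The spans were chosen after the values were seen.

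**Figure D3:**
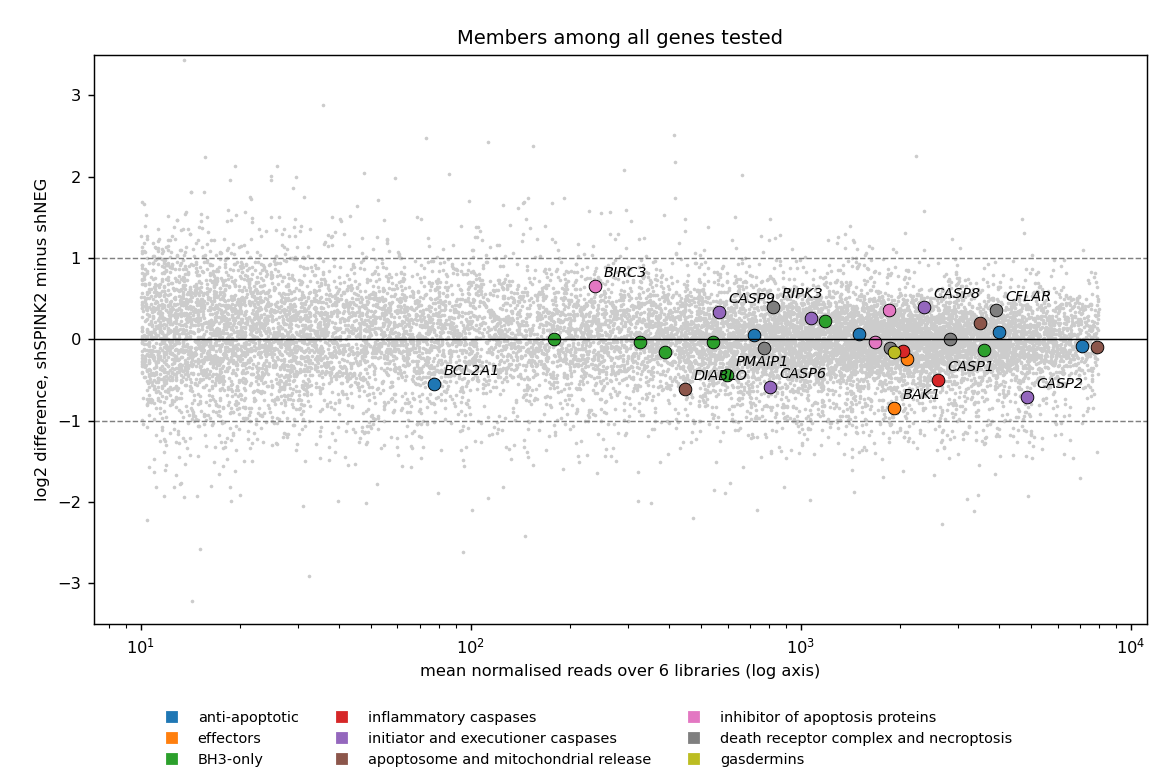
Log2 difference, shSPINK2 minus shNEG, against the mean normalised reads on a log axis, for all genes tested (grey) and the 33 tested members (coloured by role, some named); 1 gene lies outside the axis. The members lie inside the cloud of genes, all between the dashed lines at absolute log2 differences of 1.

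BAK1 and DIABLO, which hold the word of shRNA2 in their 3′ UTR as shown above, had log2 differences of -0.84 and -0.62. This word was chosen with its values known, and of the 30 words of 7 bases in the 2 targets it had the lowest difference of medians between genes with and without it, the next lowest being -0.08. Over all genes searched, the median log2 difference was -0.20 in the 1208 genes with the word and 0.0011 in those without, and 52.6% of the genes with it were lower beside 32.3% of those without. The word also occurs in the coding sequence of CASP1, CASP4 and FADD, whose log2 differences were -0.50, -0.14 and -0.11. Of the 11 members called lower, 7 (CASP2, CASP6, BCL2A1, PMAIP1, BAX, BID and GSDMD) do not hold it in the 3′ UTR or the coding sequence searched. Of the seed matches, that of shRNA1 occurs in the 3′ UTR of APAF1, BCL2L11, CFLAR and PMAIP1 (12.1% of members, 13.6% of genes), of which 3 rose and 1 fell. That of shRNA2 occurs in APAF1, CASP2, CFLAR, CYCS, PMAIP1 and XIAP (18.2% of members, 15.4% of genes), of which 2 rose, 2 fell and 2 passed in neither direction. For the seed matches the median log2 difference was 0.013 with and -0.022 without the match of shRNA1 (32.1% and 34.8% lower), and 0.0010 with and -0.021 without that of shRNA2 (33.3% and 34.6% lower). The part of these words in the differences was not tested.

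Per kb of merged exons, CYCS had the highest mean level of the members over the 6 libraries, at 1363 normalised reads per kb, followed by MCL1 at 1140. BAK1 at 864, BID at 812 and BAX at 810 came next, and the lowest of the tested members were BBC3 at 56.3 and BIRC3 at 31.8. The order at the top depended on the length used. With the longest transcript MCL1 at 1559, BAX at 1543, CYCS at 1454 and BID at 1439 led, and BAK1 was sixth. In shNEG alone BAK1 stood at 1108 ± 28.3 normalised reads per kb and BAX at 879 ± 31.6, and in shSPINK2 at 619 ± 2.93 and 741 ± 19.0 (SD, n = 3), so BAK1 went from the higher to the lower of the pair on merged exons.

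**Figure D4:**
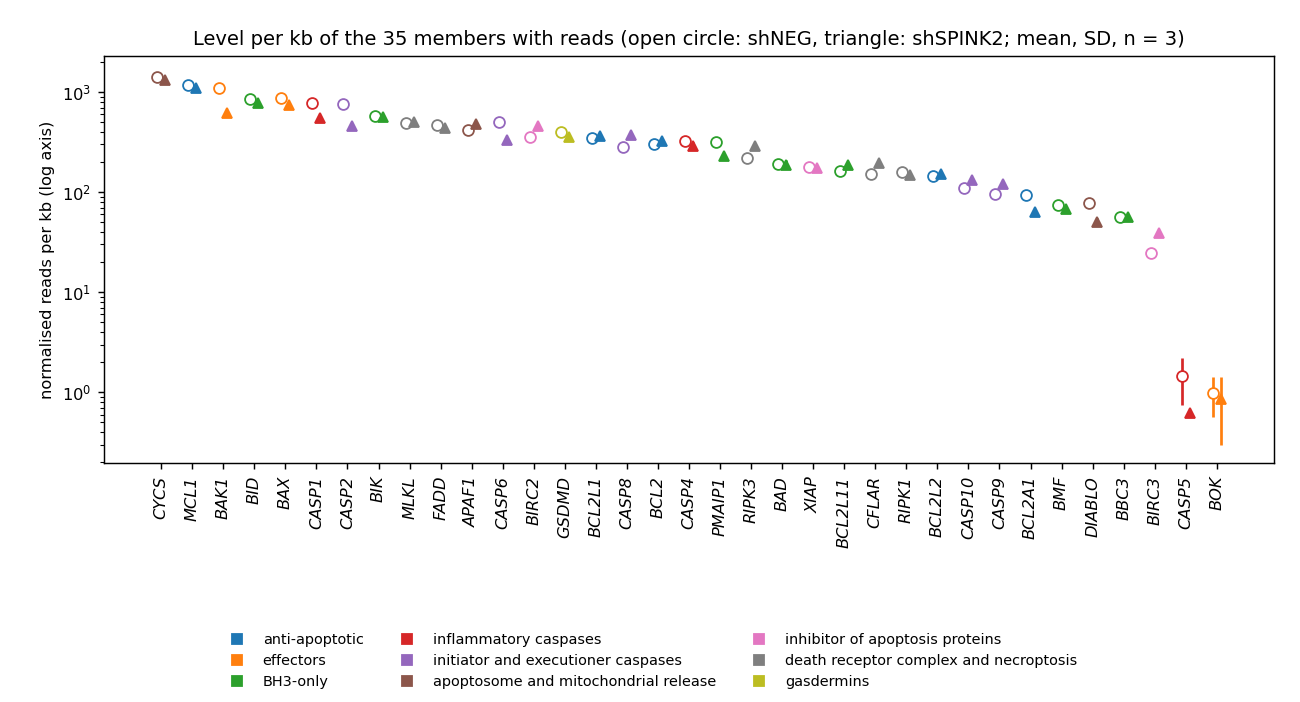
Level of the 35 members with reads, in normalised reads per kb of merged exons on a log axis, ordered by the mean over 6 libraries; open circles are shNEG, triangles shSPINK2, bars the SD of 3 libraries, and colours the roles. CYCS and MCL1 lead, BIRC3 is lowest of the tested members at 31.8, and CASP5 and BOK lie near 1.

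Summed per kb over each role, the effectors fell furthest, from 1988 ± 41.1 normalised reads per kb in shNEG to 1361 ± 18.4 in shSPINK2 (SD, n = 3). The guardians summed to 2066 ± 38.1 and 2012 ± 44.1, with overlapping libraries. The BH3-only members summed to 2225 ± 110 and 2073 ± 16.8, and the initiator and executioner caspases to 1740 ± 8.62 and 1415 ± 46.7, in which the fall of CASP2 and CASP6 outweighs the rise of CASP8, CASP9 and CASP10. The inflammatory caspases fell from 1095 ± 23.4 to 838 ± 54.9, and the gasdermins from 397 ± 12.9 to 357 ± 12.8. The inhibitor of apoptosis proteins rose from 561 ± 11.3 to 674 ± 41.2. Libraries overlapped in the apoptosome and mitochondrial release group (1905 ± 63.9 and 1847 ± 103.5). They also overlapped in the death receptor complex and necroptosis group (1496 ± 29.4 and 1567 ± 68.8). The sum over all 37 members fell by 9.88%. These sums weigh genes by their level and are a description.

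Of 51 further genes of cell death, 41 were tested, and 14 were higher, 14 lower and 13 in neither direction, with a median log2 difference of -0.04. Beside this, 27.9% of all genes tested were higher and 29.4% lower. Within the members' range of means, 32.7% of genes were higher and 36.0% lower. The counts for this list are a description. The largest falls called were in BNIP3L, a mitophagy receptor (-1.45, adjusted p = 1.85e-22), in PIDD1, the platform on which CASP2 is activated (-0.61, adjusted p = 1.55e-11), and in the inflammasome sensor NLRP1 (-0.55, adjusted p = 1.98e-05). PIDD1 had 1231, 1171 and 1166 reads in shNEG and 852, 738 and 773 in shSPINK2, so it was lower in every library, as CASP2 was. The largest rises called were in the inflammasome adaptor and sensor NLRC4 (0.84, adjusted p = 0.00518), in AIFM2, a suppressor of ferroptosis (0.83, adjusted p = 0.00311), and in the DNA sensor AIM2 (0.44, adjusted p = 3.63e-07). NLRC4 and AIFM2 had few reads, with means of 24.1 and 35.7.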

How the data were processed

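Per the study's methods, the authors used STAR to align paired reads of mRNA libraries to GRCh38, featureCounts for gene counts and DESeq2 for the comparison; the submitters' processing notes give STAR 2.7.11, DESeq2 1.40.0 and hg38. The annotation release and strandedness are not given in the sources used here. The deposited table holds, for each of 63236 genes, a signal that the authors computed, the mean over 6 libraries of counts divided by size factors, and columns of their own comparison: a log2 fold change, its standard error, a Wald statistic (a score), a p-value, an adjusted p-value and a status. None of these comparison columns is reported or compared with. The columns were identified by the file headers, and the deposited log2 fold change and standard error were used here only as a key in recovering reads.

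The deposited mean has 15 significant digits and is a weighted sum of 6 whole read numbers. Means shared by genes with 1 read in 1 library gave each library's size factor, and its group came from the sign of the deposited fold change. The whole reads of a gene were those that give its mean and, from a mean of 4 upwards, its deposited fold change within 1e-06, with the next candidate at least 100 times further off. Of 32220 genes above 0, 31286 had a mean under 8000 and recovered reads, and 28 under that mean were not recovered. On simulated data, 1499 of 1500 genes with a mean of 4 to 4000 were recovered and 1 was left out; of 2000 at 4000 to 8000, 1796 were recovered, 204 left out and 0 were wrong. At 8000 to 16000, 3 were wrong beside 1061 right, so genes with a mean of 8000 or more (906) were not used in the main fit. This limit was set after the data were seen, from the simulation, and all 37 members lie below it. Libraries so recovered cannot be matched to replicate numbers.

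Reads divided by the size factor plus 0.5 were log2-transformed and fitted with limma 3.58.1 in R 4.3.3 (lmFit, eBayes with trend), without covariates, over 15197 genes (mean at least 10), with Benjamini-Hochberg adjustment; log2 differences are on this scale. On simulated data of that size, 31 of 50 genes changed 1.25-fold, 48 of 50 changed 1.5-fold and 3 of 14997 unchanged genes were called. The dispersion was set by hand there and few genes were changed, whereas 57.3% of genes were called in the data. With so many called, the adjusted p threshold is looser, so these rates need not hold for the data. An exact permutation test of 3 against 3 cannot go below p = 0.1 and was not used. Every member, SPINK2 and the 3 largest called rises and falls of a list of further death genes are named; other names were chosen after their values were seen. The members, lists and word were chosen with earlier results of these data known. Lengths, positions and UTRs are from GENCODE release 44, for canonical transcripts with a 3′ UTR of more than 20 bases in the word search. Python 3.11.15, numpy 2.4.6, numba 0.67.0 and pandas 2.3.3 were used.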

Additional observations from a re-analysis of the deposited data

How the results depend on the processing

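Across 13 alternatives, 16 of the 20 called members kept their call and no called member changed direction. Members called higher numbered between 8 and 10, beside 9, and members called lower between 9 and 13, beside 11; no member passed an absolute log2 difference of 1 in any. BID and CASP4 lost their call without a filter beyond 1 read, without a trend in the variance prior, when libraries were centred on their median and at an adjusted p under 0.01, and APAF1 lost it without the trend (adjusted p = 0.0564). Centring moved the median of all genes by 0.04 on the log2 scale, made BCL2 called higher (0.12, adjusted p = 0.0107) and put BAD at 0.0054, BIK at 0.00098 and XIAP at 0.00080, where they had been below 0. With a minimum mean of 50, CYCS was called lower (adjusted p = 0.0499). When each library was left out in turn, members not called crossed 0 as follows: BAD ranged from -0.095 to 0.047, BIK from -0.075 to 0.024, BBC3 from -0.051 to 0.047, MLKL from -0.027 to 0.027 and BCL2L2 from -0.0055 to 0.11. SPINK2 ranged from -3.06 to -2.69 over the alternatives; it could not be tested at a minimum mean of 50. Genes with a mean up to 16000, an alternative chosen after seeing the data, changed no call of a member. No paired analysis was possible because the recovered libraries carry no replicate number. Levels per kb moved by more than the spread over the 6 libraries in 25 of 35 members when the longest transcript was used. The median standard error of the tested members was 0.05 on the log2 scale, and BCL2A1, with a mean of 77.5, had the largest at 0.15, with a 95% interval of -0.85 to -0.25.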
